A study of Mus musculus with 12 samples.

Results

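Cell cycle and DNA replication genes were followed across injured and uninjured mouse spinal cord. A list of 43 genes was used, given by name for their textbook roles in DNA replication or mitosis. Of these, 42 were found by symbol in the authors' deposited FPKM table and joined by Ensembl identifier to the count table, out of 37991 genes counted. They comprised 13 replication genes and 29 mitotic genes, and all 42 were among the 16473 genes with enough counts to test. Cdt1 (ENSMUSG00000006585), a licensing factor that loads the MCM helicase, had no entry under that name in the FPKM table and is given apart.

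A cell that divides first copies its DNA, for which it loads the MCM helicase onto origins, clamps polymerases to DNA with PCNA and makes deoxynucleotides. It then enters mitosis under cyclin A and B with CDK1, builds a spindle, attaches it to kinetochores and degrades cyclin B through the anaphase-promoting complex. Adult spinal cord holds few dividing cells, and after injury glia, immune cells and cells of the vessel wall are known to divide.

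RNA was sequenced from whole tissue of 12 mice on a C57bl/6J background, all adults aged more than 8 weeks, 4 per group, each mouse carrying Glast-CreERT2, R26R-YFP and Rasless alleles. SCI Tam mice received 2 mg of tamoxifen a day for 5 days, which activates Cre in cells with Glast promoter activity, known to include type A pericytes and astrocytes. After 7 clearing days they had a dorsal hemisection of the high thoracic cord, and the injury site was collected 14 days later. SCI Veh mice had the solvent injections and the same operation, and their lesions held dense pericyte-derived scars where those of SCI Tam mice held attenuated ones, per the series text. Uninjured mice carried the same alleles, had vehicle as their labelled injection and no operation, and gave a cord segment. Rasless alleles are known to leave recombined cells without Ras proteins, which cells need in order to proliferate. The SCI Tam libraries are named by mouse number as 452, 513, 549 and 564, the SCI Veh libraries as 402, 428, 429 and 457, and the Uninjured libraries as 376, 377, 385 and 467, and lists of 4 values follow that order.

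The libraries held 7967970 to 12581324 counts. The labels' sample names set SCI Tam 513, 549 and 564 apart, numbered 106 to 108, from the other 9 libraries, numbered 1 to 20, of which 452 is the only SCI Tam one. What that numbering marks is not stated, and for SCI Tam it cannot be told apart from the mice themselves. All 4 SCI Tam mice were female by Xist and Y-linked transcripts, as were 1 of 4 SCI Veh mice (429) and 3 of 4 Uninjured mice (all but 467). Spinal cord neuron markers were present throughout, with 6 summed genes at 2050 to 3030 CPM (counts scaled to library size by TMM) in SCI Tam, 1720 to 2290 in SCI Veh and 3370 to 3630 in Uninjured libraries. Labels name separate mice, so p-values rest on the spread between animals. In whole tissue, fewer cells of a kind and less RNA per cell cannot be told apart.

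The first comparison set vehicle lesions against uninjured cord. Mitotic genes were broadly higher at the lesion and replication genes rose in part. By edgeR's quasi-likelihood test with Benjamini-Hochberg adjustment over all genes, 25 of 29 mitotic genes and 5 of 13 replication genes rose, or 30 of 42 members, where 26.7% of all genes tested did. Ccne1 was the only member that fell, where 24.1% of all genes did. The median log2 difference was 1.68 for the mitotic genes (3.20-fold) and 0.39 for the replication genes (1.31-fold), beside 0.02 over all genes tested. In 34 of the 42 members (27 mitotic, 7 replication) every SCI Veh library lay above every Uninjured library, a pattern that 26.3% of all genes showed.

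Top2a (ENSMUSG00000020914), the topoisomerase that untangles sister chromosomes, carried one of the widest gaps. It was at 8.27, 34.2, 46.9 and 30.9 CPM in the SCI Tam libraries, at 17.5, 17.2, 20.9 and 13.3 CPM in the SCI Veh libraries, and at 3.44, 1.46, 0.703 and 2.55 CPM in the Uninjured libraries. Both lesion groups stood wholly above Uninjured, with 452 the lowest lesion library and 549 the highest. Cdk1 (ENSMUSG00000019942), the kinase that drives entry into mitosis, was at 3.00, 9.13, 11.2 and 9.92 CPM in SCI Tam, at 5.66, 4.57, 4.78 and 4.47 CPM in SCI Veh, and at 1.26, 0.429, 0.352 and 0.615 CPM in Uninjured libraries. The order of the libraries was the same in outline: Uninjured lowest, 452 below all SCI Veh libraries, and 513, 549 and 564 above them. Against Uninjured, SCI Veh levels differed by 3.11 ± 0.51 (SE, n = 4 each) on the log2 scale for Top2a (edgeR adjusted p = 0.000269) and by 2.91 ± 0.44 for Cdk1 (edgeR adjusted p = 0.000158).

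**Figure D1:**
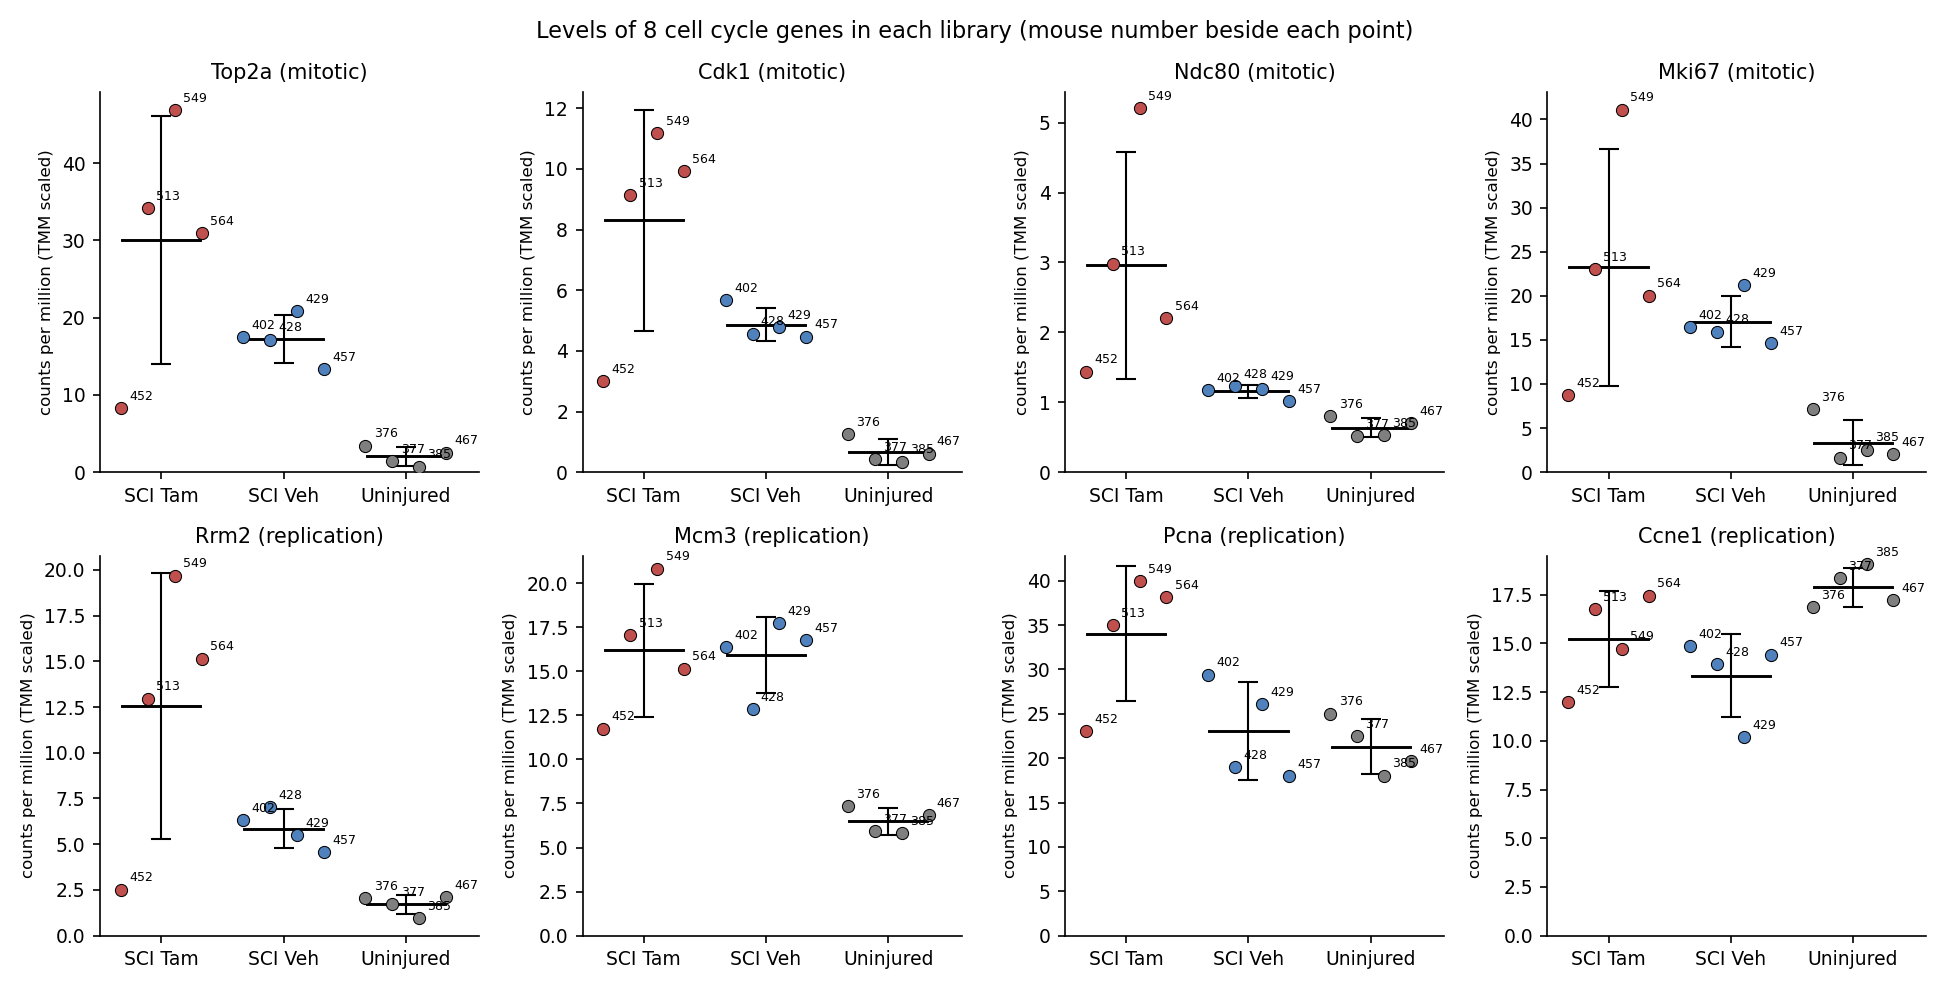
Levels of 4 mitotic genes (top) and 4 replication genes (bottom) in each library, in CPM on a linear axis from 0, with SCI Tam at the left, SCI Veh in the middle and Uninjured at the right. Points are libraries with their mouse number, horizontal lines are group means and whiskers are 1 SD (n = 4). In Top2a and Cdk1 library 452 sits below, and 513, 549 and 564 above, all SCI Veh libraries, while Pcna in SCI Veh overlaps Uninjured and Ccne1 is highest in Uninjured.

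Partners of CDK1 rose with it. All 5 genes of the group of CDK1, cyclins A2, B1 and B2 and the transcription factor FOXM1 rose in SCI Veh, with a median log2 difference of 2.35. Ccnb1, cyclin B1, had the largest fitted difference among the members, 12.5-fold (log2 3.65 ± 0.69, edgeR adjusted p = 0.000772). It averaged 1.60 ± 0.10 CPM in SCI Veh libraries and 0.130 ± 0.149 CPM in Uninjured libraries (SD, n = 4 each), and the 4 Uninjured libraries held only 5 reads of it in all, so the size of its fold is loosely set. Foxm1, which activates many mitotic genes, rose least of the 5, 1.95-fold (log2 0.96 ± 0.24, edgeR adjusted p = 0.00475).

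Spindle, kinetochore and checkpoint genes rose to differing degrees. All 7 spindle motors and bundlers rose, by 1.69-fold for Nusap1, which bundles spindle microtubules, up to 4.16-fold for Kif23, a kinesin of the central spindle. Between these lay the midzone bundler Prc1 (3.34-fold), Kif11, the motor that pushes spindle poles apart (3.20-fold), Tpx2, which nucleates microtubules and activates Aurora A (2.53-fold), Kif20a (2.20-fold) and Kif4 (1.96-fold). With a term for sex the edgeR adjusted p was 0.0595 for Kif20a and 0.0528 for Kif4, and the Kif20a call was also lost without 376, 385, 428 or 429 and the Kif4 call without 385. Of 5 centromere and kinetochore genes 4 rose, with Cenpa, the histone H3 variant of centromeres, at 6.16-fold, Cenpf at 5.38-fold, the kinetochore motor Cenpe at 3.13-fold and Nuf2 at 2.17-fold. Ndc80, which binds microtubules at the kinetochore, was the exception at 1.81-fold (log2 0.86 ± 0.41, edgeR adjusted p = 0.0993), although its SCI Veh libraries lay above all Uninjured ones. Of 8 mitotic kinases and passenger proteins 5 rose, among them the checkpoint kinase Bub1 (7.76-fold) and Aurkb (5.78-fold), the kinase of the passenger complex, with its partner Cdca8 at 3.05-fold, the polo kinase Plk1 at 2.67-fold and the checkpoint gene Bub1b at 2.46-fold. The other 3 did not pass: Aurka, the spindle pole kinase, at 1.26-fold (edgeR adjusted p = 0.357), Birc5 at 1.97-fold (0.0628) and Ttk at 1.90-fold (0.0703). The Bub1b call was lost without 429 (edgeR adjusted p = 0.0643) and the Nuf2 call without 377 (0.0523). Ube2c and Cdc20, an enzyme and an activator of the anaphase-promoting complex, both rose, 6.07-fold and 3.73-fold.

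Bub1 needs care. Its counts gave log2 2.96 ± 0.70 (edgeR adjusted p = 0.00348), from 55 reads in SCI Veh and 7 in Uninjured libraries, but the authors' FPKM with 0.1 added gave 0.41 (limma adjusted p = 0.457). Its FPKM in Uninjured library 376 was 0.771 from 2 reads, above all 4 SCI Veh values (0.278 to 0.549). Aurkb (log2 1.51), Tpx2 (0.91) and Kif4 (0.66) also missed the threshold by that measure, with limma adjusted p of 0.102, 0.142 and 0.0648.

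Promoters of the mitotic and replication genes were read from RefSeq (build GRCm38.p6), from 250 bases before to 50 after each transcription start. Mitotic genes are known for promoters that hold a CHR element (searched as TTTGAA or TTCGAA) and CCAAT boxes (searched as CCAAT), and replication genes for E2F sites (searched as TTTCCCGC, TTTCGCGC, TTTGCCGC or TTTGGCGC), each on both strands. The promoters of Top2a (chr11:99024140-99024439, minus strand) and Cdk1 (chr10:69352863-69353162, minus strand) are printed. Of the mitotic genes with a RefSeq entry, these genes had the smallest edgeR p in SCI Veh against Uninjured. Each promoter is given in the direction of the gene, with every match in capitals, as the letters searched or their reverse complement.
Top2a: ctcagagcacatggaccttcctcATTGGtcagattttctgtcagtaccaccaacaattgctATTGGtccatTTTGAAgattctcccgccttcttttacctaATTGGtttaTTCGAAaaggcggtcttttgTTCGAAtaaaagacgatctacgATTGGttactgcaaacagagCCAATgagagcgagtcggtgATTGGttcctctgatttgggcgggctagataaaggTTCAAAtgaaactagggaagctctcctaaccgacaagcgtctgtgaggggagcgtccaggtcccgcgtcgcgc
Cdk1: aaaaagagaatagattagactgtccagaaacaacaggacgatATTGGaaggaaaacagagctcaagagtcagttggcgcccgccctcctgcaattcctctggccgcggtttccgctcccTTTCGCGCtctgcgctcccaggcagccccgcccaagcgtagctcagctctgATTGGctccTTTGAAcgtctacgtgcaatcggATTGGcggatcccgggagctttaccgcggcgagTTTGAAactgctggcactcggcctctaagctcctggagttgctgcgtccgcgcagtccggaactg

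The Top2a window held 6 CCAAT matches and 4 CHR matches, and the Cdk1 window 3 and 2, with 1 E2F-type match. RefSeq promoters matched 24 of 29 mitotic genes (25 windows) and 12 of 13 replication genes (13 windows). A CHR match was in 80.0% of the mitotic windows and 15.4% of the replication windows, against 19.2% of all 32851 promoter windows. A CCAAT match was in 84.0% of mitotic, 69.2% of replication and 37.4% of all windows, and both together were in 76.0%, 15.4% and 7.52%. An E2F-type match was in 4.00% of mitotic windows, 30.8% of replication windows and 2.26% of all windows. These are matches of letters, taken for every listed gene with an entry, whatever its change. No binding was measured, and a link of the matches to the differences was not tested. CHR-bearing windows were not limited to genes that rose: Aurka held 1 CHR and 2 CCAAT matches, and Ccnb1, with the largest fitted difference, held 2 CCAAT matches and none to CHR.

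Replication genes stood apart from the mitotic ones in level as well as in change. Per length, the median of the 13 replication genes was 4.73 FPKM in SCI Veh libraries and 3.21 FPKM in Uninjured libraries, while that of the 29 mitotic genes was 1.57 FPKM in SCI Veh and 0.430 FPKM in Uninjured libraries. In Uninjured libraries 23 of the 29 mitotic genes had a median under 1 FPKM, against 1 of 13 replication genes, Rrm2. Pcna, the polymerase clamp, was the most abundant member in every group, with a median of 29.6 FPKM in SCI Tam, 22.4 FPKM in SCI Veh and 19.0 FPKM in Uninjured libraries.

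The MCM helicase subunits rose unequally. Mcm3 (ENSMUSG00000041859) was at 16.4, 12.8, 17.7 and 16.8 CPM in SCI Veh libraries, against 7.34, 5.91, 5.80 and 6.85 CPM in Uninjured libraries. The groups did not overlap, and the difference was 2.47-fold (log2 1.30 ± 0.17, edgeR adjusted p = 5.3e-05). Mcm6 rose 2.38-fold, Mcm5 1.73-fold and Mcm4 1.31-fold, while Mcm2 (1.25-fold, edgeR adjusted p = 0.102) and Mcm7 (1.12-fold, 0.270) did not pass. In the helicase the subunits stand in equal numbers, while the SCI Veh differences of their transcripts spread over 0.17 to 1.30 on the log2 scale. Promoters of Mcm3 (chr1:20820263-20820562, minus strand) and Mcm5 (chr8:75109259-75109558, plus strand) are printed for comparison with those of Top2a and Cdk1. They were chosen in the same way, by the smallest edgeR p among replication genes with a RefSeq entry. Both held E2F-type and CCAAT matches (capitals) and no CHR match.
Mcm3: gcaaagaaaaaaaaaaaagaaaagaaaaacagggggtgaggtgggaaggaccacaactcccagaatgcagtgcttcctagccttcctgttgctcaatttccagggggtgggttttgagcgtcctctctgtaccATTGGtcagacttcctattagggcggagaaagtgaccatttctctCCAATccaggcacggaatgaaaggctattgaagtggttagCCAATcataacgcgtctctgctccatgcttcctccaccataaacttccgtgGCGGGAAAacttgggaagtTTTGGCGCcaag
Mcm5: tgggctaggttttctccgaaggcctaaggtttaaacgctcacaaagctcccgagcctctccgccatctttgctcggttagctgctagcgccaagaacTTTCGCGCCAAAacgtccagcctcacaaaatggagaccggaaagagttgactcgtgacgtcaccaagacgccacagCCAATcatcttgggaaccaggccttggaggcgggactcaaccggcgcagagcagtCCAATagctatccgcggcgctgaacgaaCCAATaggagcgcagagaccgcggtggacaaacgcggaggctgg

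In Mcm5 the long capital run is a pair of overlapping E2F-type matches on opposite strands. Each of these windows held 2 E2F-type and 3 CCAAT matches.

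Enzymes of nucleotide supply gave a single call. Rrm2, the regulatory subunit of ribonucleotide reductase, which is made in S phase, was at 6.30, 7.04, 5.51 and 4.55 CPM in SCI Veh libraries, against 2.07, 1.71, 0.966 and 2.11 CPM in Uninjured libraries. It rose 3.40-fold (log2 1.76 ± 0.49, edgeR adjusted p = 0.00955) with no overlap of the groups. Its partner Rrm1, the catalytic subunit, was at 38.4 ± 1.4 CPM in SCI Veh and 33.9 ± 2.2 CPM in Uninjured libraries (SD, n = 4 each), a 1.13-fold difference that did not pass (edgeR adjusted p = 0.177). Tyms (1.75-fold, edgeR adjusted p = 0.0964) and Tk1 (1.44-fold, 0.180), which make and salvage thymidylate, did not pass either.

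Neither Pcna nor the G1/S regulators rose. Pcna was at 29.4, 19.0, 26.1 and 17.9 CPM in SCI Veh libraries and 25.0, 22.4, 18.0 and 19.7 CPM in Uninjured libraries, overlapping groups that differed by 0.12 ± 0.19 on the log2 scale (edgeR adjusted p = 0.634). E2f1, the S-phase transcription factor, differed by 0.06 ± 0.13 (edgeR adjusted p = 0.738). Ccne1 (ENSMUSG00000002068), cyclin E1, which activates CDK2 at the start of S phase, was at 14.8, 14.0, 10.2 and 14.4 CPM in SCI Veh libraries, against 16.9, 18.3, 19.1 and 17.2 CPM in Uninjured libraries. All SCI Veh libraries lay below all Uninjured ones, and Ccne1 fell by 0.42 on the log2 scale (SE 0.14, edgeR adjusted p = 0.0201). The authors' FPKM with 0.1 added gave the same size, -0.42, with a limma adjusted p of 0.0642, and the edgeR call was also lost without Uninjured library 385. Cdt1, counted apart from the members, was at 7.69, 4.81, 6.34 and 5.41 CPM in SCI Veh and 3.79, 3.43, 3.51 and 3.34 CPM in Uninjured libraries and rose 1.73-fold (edgeR adjusted p = 0.00176).

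**Figure D2:**
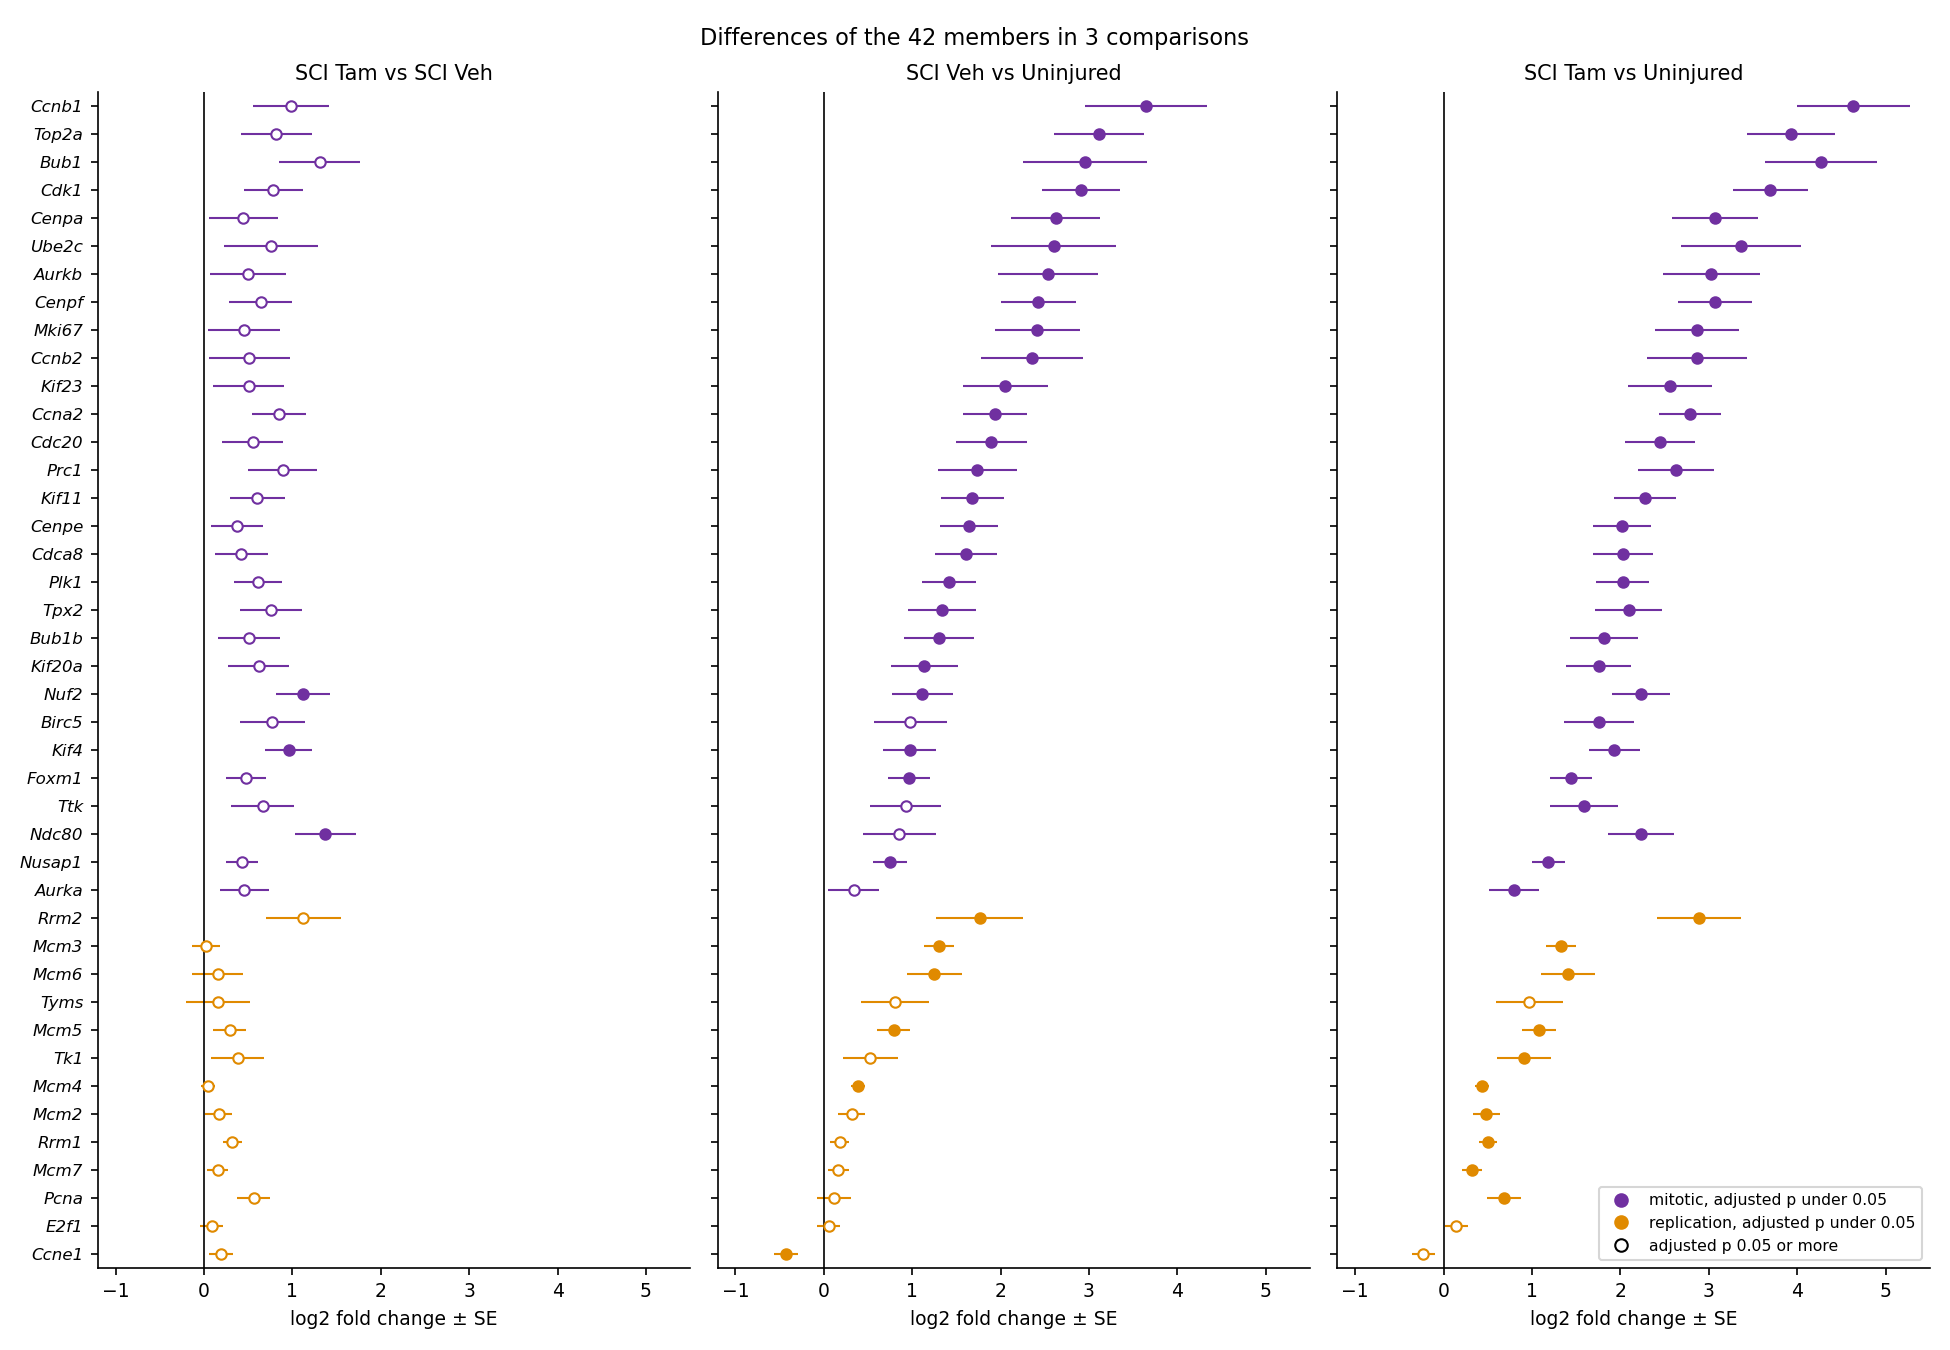
Log2 fold changes with their SE for the 42 members in the comparisons SCI Tam vs SCI Veh, SCI Veh vs Uninjured and SCI Tam vs Uninjured, with mitotic genes above and replication genes below, each sorted by the middle comparison. Filled points passed an edgeR adjusted p of 0.05. Against Uninjured most mitotic points are filled and lie at 0.75 or more, replication points lie nearer 0, and between the lesion groups only Nuf2, Kif4 and Ndc80 are filled.

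Other genes of these pathways were read from wider lists. Of 42 further replication genes 11 rose and 3 fell in SCI Veh, with a median log2 difference of 0.10, and the share that rose was close to the 26.7% of all genes that did. Uhrf1, which copies DNA methylation marks, rose 4.60-fold and Chaf1b, a histone chaperone subunit, 4.47-fold, with Pole2, a DNA polymerase epsilon subunit, at 4.12-fold and Gins2, a helicase partner, at 2.25-fold. Of 51 further mitotic genes tested 32 rose and 1 fell, with a median of 1.13, beside 26.7% higher and 24.1% lower among all genes. Those that rose included Trip13 (3.36-fold), the cyclin kinase partner Cks1b (2.75-fold), the condensin subunit Smc4 (1.94-fold) and the lamin Lmnb1 (1.53-fold).

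Genes upstream of S phase rose on both sides. Of 17 G1 cyclins, kinases and E2F-type factors 10 rose and 1 fell in SCI Veh, beside 26.7% higher and 24.1% lower among all genes. Ccnd2, cyclin D2, averaged 122 ± 5.5 CPM in SCI Veh and 46.2 ± 5.0 CPM in Uninjured libraries (SD, n = 4 each) and rose 2.64-fold, beside Cdk2 (2.96-fold), Myc (2.43-fold) and Cdk4 (1.65-fold). Of 10 CDK inhibitors and pocket proteins, which restrain entry into S phase, 7 rose, beside the same 26.7%, and Cdkn1c, Cdkn2d and Rbl2 did not pass in either direction. Cdkn2c averaged 9.11 ± 1.04 CPM in SCI Veh and 1.87 ± 0.19 CPM in Uninjured libraries (SD, n = 4 each), a 4.83-fold difference (edgeR adjusted p = 1.51e-05). Cdkn2b rose 3.39-fold, Rbl1 2.25-fold and Rb1 1.72-fold.

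Markers of several cell types moved between the same groups. Macrophage and microglia markers summed to 1750 to 3430 CPM in SCI Veh and 247 to 341 CPM in Uninjured libraries, and all 12 rose. Fibroblast and mural markers summed to 3000 to 8020 CPM in SCI Veh and 338 to 723 CPM in Uninjured libraries, and all 10 rose. Oligodendrocyte precursor markers summed to 1220 to 1390 CPM in SCI Veh and 992 to 1180 CPM in Uninjured libraries, and 3 of 7 rose. Astrocyte markers summed to 7610 to 9820 CPM in SCI Veh and 4500 to 5200 CPM in Uninjured libraries, and 3 of 4 rose. Endothelial markers summed to 246 to 318 CPM in SCI Veh and 166 to 223 CPM in Uninjured libraries, and 4 of 7 rose, while all 6 neuron markers fell. No marker of these lists was at 0 in a whole group. Their part in the mitotic difference was not tested.

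Uninjured library 376 carried more of some mitotic transcripts than its group. Mki67, the antigen of the Ki-67 proliferation stain, was at 7.12 CPM in 376 and at 1.63 to 2.55 CPM in the 3 other Uninjured libraries, against 14.7 to 21.2 CPM in SCI Veh libraries. In 376, 17 of 42 members (15 mitotic) were above the 3 other Uninjured libraries, where 31.3% of all genes were. The 12 bone marrow and erythroid markers summed to 47.5 CPM in 376 and to 4.83 to 8.87 CPM in the other Uninjured libraries, led by Ngp (22.3 against 1.05 to 3.43 CPM) and Camp (10.1 against 0.176 to 1.11 CPM), neutrophil granule genes. Epor (2.64 against 1.63 to 2.81 CPM) and Ms4a3 (0 against up to 0.0857 CPM) of the same list were not raised in 376. Klf1, a red cell lineage gene, was at 1.15 CPM in 376 and at most 0.171 CPM in the other 3. Their part in the Mki67 level was not tested. Without 376 the members that rose in SCI Veh numbered 30, as with it, and the log2 differences were 3.04 for Mki67 and 3.35 for Cdk1.

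The second comparison set tamoxifen lesions against the same Uninjured libraries. All 29 mitotic genes and 10 of 13 replication genes rose, 39 members in all, where 26.3% of all genes tested did, and none fell by edgeR, DESeq2 or limma, where 22.7% of all genes did by edgeR. At an unadjusted p under 0.05 edgeR and DESeq2 again gave 0 lower members and limma on FPKM gave 1. The median log2 difference was 2.28 for mitotic genes (4.86-fold) and 0.68 for replication genes (1.61-fold). Ccne1 (-0.23 ± 0.14), E2f1 (0.15 ± 0.13) and Tyms (0.97 ± 0.38) did not pass. The widest differences were in Ccnb1 (24.8-fold), Bub1 (19.3-fold), Top2a (15.2-fold) and Cdk1 (13-fold), and among replication genes in Rrm2 (7.42-fold), Mcm6 (2.65-fold) and Mcm3 (2.51-fold). The Uninjured libraries held only 5 reads of Ccnb1 and 7 of Bub1, so these folds are loosely set. For Bub1 the log2 difference was 4.27 from counts and 1.33 from FPKM with 0.1 added. Pcna, Rrm1, Mcm2, Mcm7 and Tk1, which had not passed in SCI Veh, rose here by 1.25-fold to 1.87-fold. The Mcm7 call (edgeR adjusted p = 0.0386) was lost with DESeq2 (adjusted p = 0.0582), with limma on FPKM, with a term for sex and without any of 9 single libraries, and the Tk1 call (edgeR adjusted p = 0.0267) with a term for sex (adjusted p = 0.056) and without 376, 377, 513 or 549. The Mcm2 call was lost without 467 or 549. Among the mitotic genes, the Aurka call (edgeR adjusted p = 0.0334) was lost with limma on FPKM and without 376, 377, 467, 513, 549 or 564. It was also lost in a fit of the 8 SCI Tam and Uninjured libraries alone (edgeR adjusted p = 0.0509). Both comparisons use the same 4 Uninjured libraries, so their likeness is no separate evidence.

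By the medians, library 452 differed less from Uninjured than all SCI Tam libraries did together. A fit with a lone SCI Tam library has less power, so its smaller count of calls cannot show which libraries carried the rise. With 452 as the only SCI Tam library, 5 members rose against Uninjured, where 7.29% of all genes did: Cdk1, Top2a, Ccna2, Cenpf and Mcm3. Their log2 differences ran down to 0.86 for Mcm3 (edgeR adjusted p = 0.024), led by Cdk1 at 2.22 (edgeR adjusted p = 0.016). Library 452 lay above every Uninjured library in 27 members (22 mitotic), where 33.8% of all genes did. The mitotic median was then 0.89 and the replication median 0.30. Without 452, the lowest SCI Tam library in 41 members, 40 members rose, where 27.7% of all genes did.

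The third comparison, SCI Tam against SCI Veh, asked whether the attenuated scar went with a different level of these genes. Only 3 members rose, Ndc80, Nuf2 and Kif4, all mitotic, where 7.79% of all genes tested did. None fell by edgeR, DESeq2 or limma, adjusted or at an unadjusted p under 0.05, where 8.33% of all genes fell by edgeR. At an unadjusted p under 0.05 edgeR placed 13 members higher (10 mitotic, 3 replication). No share of all genes was taken at an unadjusted p, so counts at that threshold, here and elsewhere, cannot be set against all genes. No replication gene passed by edgeR or limma, while DESeq2 called 2. All 42 fitted differences were above 0, with medians of 0.62 for mitotic genes (1.53-fold) and 0.17 for replication genes (1.12-fold), beside 0.00 over all genes.

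Ndc80 (ENSMUSG00000024056) was at 1.44, 2.98, 5.20 and 2.20 CPM in SCI Tam libraries, against 1.18, 1.23, 1.19 and 1.02 CPM in SCI Veh libraries. It was the only member whose SCI Tam libraries all lay above all SCI Veh libraries, though the share of all genes with that order was not counted. It rose 2.59-fold (log2 1.38 ± 0.34, edgeR adjusted p = 0.02). Nuf2, its partner in the kinetochore complex, was at 4.195, 10.2, 15.9 and 11.8 CPM in SCI Tam, against 4.92, 4.94, 5.51 and 4.23 CPM in SCI Veh libraries. It rose 2.17-fold (log2 1.12 ± 0.31, edgeR adjusted p = 0.0293), although 452 was below all SCI Veh libraries. Kif4, a chromosome-bound kinesin, rose 1.94-fold (log2 0.96 ± 0.27, edgeR adjusted p = 0.0302) and 452 lay among the SCI Veh libraries. All 3 missed the threshold in a fit of the 8 lesion libraries alone (edgeR adjusted p = 0.0515, 0.0626 and 0.0595 for Ndc80, Nuf2 and Kif4) and with a term for sex (0.107, 0.128 and 0.1), while their log2 differences were as large: 1.38, 1.12 and 0.96 in the 8 libraries and 1.41, 1.12 and 1.09 with the sex term. All 3 also missed it without SCI Veh library 457 or SCI Tam library 513, with log2 differences of 0.87 or more, as did Nuf2 and Kif4 without 429, 549 or 564 and Nuf2 without 402.

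The 4 SCI Tam libraries did not behave as a group. The 29 mitotic genes summed to 84.6, 242, 351 and 247 CPM in SCI Tam libraries, to 145, 143, 165 and 131 CPM in SCI Veh libraries, and to 53.9, 40.1, 34.6 and 50.4 CPM in Uninjured libraries. Library 452 lay between the Uninjured and SCI Veh groups, and 513, 549 and 564 lay above both. The 13 replication genes summed to 167, 247, 284 and 249 CPM in SCI Tam, to 210, 188, 204 and 187 CPM in SCI Veh and to 157, 151, 145 and 161 CPM in Uninjured libraries, in the same order but closer together. Rrm2 showed the split, at 2.52 CPM in 452, 12.9 in 513, 19.7 in 549 and 15.1 in 564, against 4.55 to 7.04 CPM in SCI Veh libraries. Pcna was at 23.0 CPM in 452, within the SCI Veh range of 17.9 to 29.4 CPM, and at 34.9, 40.0 and 38.1 CPM in 513, 549 and 564, above it. Mcm4 showed no such split, at 26.1, 25.9, 29.2 and 25.9 CPM in SCI Tam, against 24.3 to 28.7 CPM in SCI Veh libraries.

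**Figure D3:**
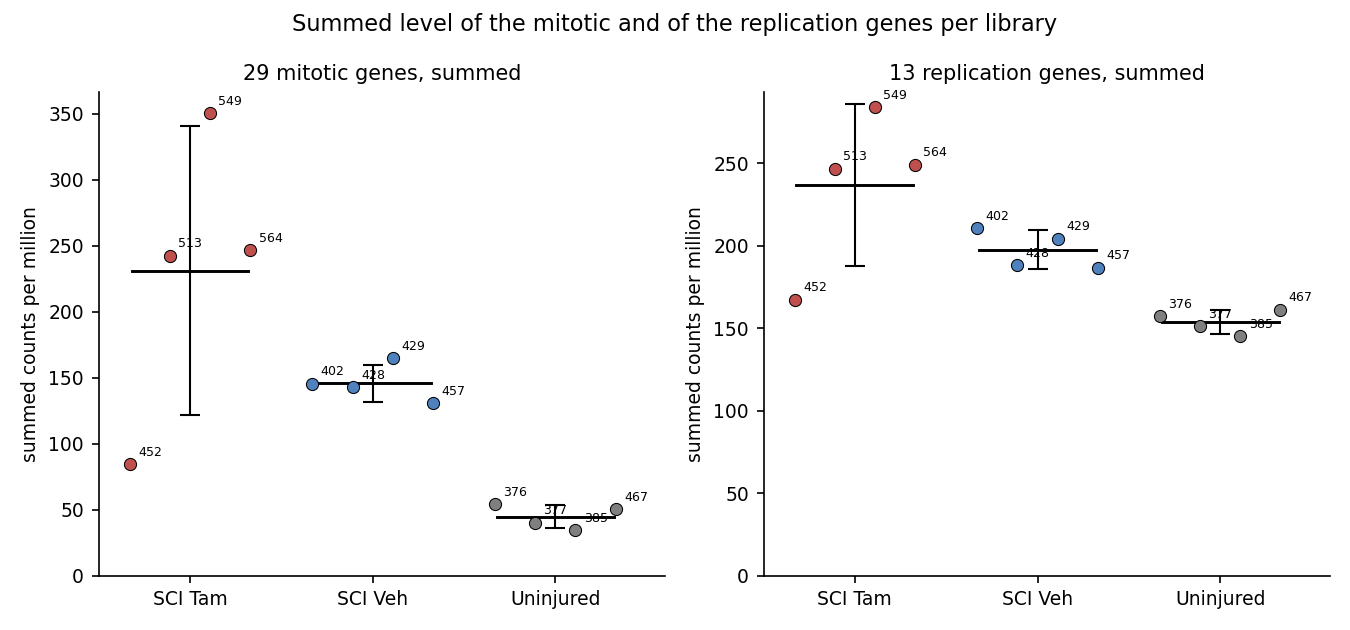
Summed CPM of the 29 mitotic genes (left) and the 13 replication genes (right) per library, on linear axes from 0, with SCI Tam left, SCI Veh in the middle and Uninjured right; points carry the mouse number, lines are means and whiskers 1 SD (n = 4). Library 452 sits at 84.6 CPM in the mitotic panel, under the SCI Veh libraries (131 to 165), while 513, 549 and 564 sit at 242 to 351.

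Member by member the division held widely. Libraries 513, 549 and 564 all exceeded 452 in 41 members, every one but Mcm4, where 30.9% of all genes showed that order. They all exceeded every SCI Veh library in 32 members, 26 of 29 mitotic genes and 6 of 13 replication genes (Pcna, Mcm5, Mcm6, Mcm7, Rrm1 and Rrm2), against 15.9% of all genes. The mitotic exceptions were Mki67, Cenpe and Cenpa. Library 452 lay below every SCI Veh library in 31 members (24 mitotic, 7 replication), against 26.6% of all genes. Bub1b, Kif4, Birc5, Nusap1 and Ndc80 were the mitotic exceptions.

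Leaving 452 out changed the comparison. Library 452 was the lowest SCI Tam library in 41 of these same members. A larger difference without it, and a smaller one with it alone, was thus set in advance. The calls and p-values without it are no separate evidence of a rise. Without it 27 members rose in SCI Tam against SCI Veh, 23 mitotic and 4 replication, where 13.9% of all genes did, and none fell by edgeR, adjusted or not (DESeq2 and limma were not run on this subset), where 13.5% of all genes did. The mitotic median was then 0.89 and the replication median 0.31. All 7 spindle motors and bundlers passed, from Nusap1 (log2 0.57) to Prc1 (1.18), as did Ube2c (1.11) and Cdc20 (0.83). Of the CDK1 group Ccnb1 (1.28), Ccna2 (1.11), Cdk1 (1.06) and Foxm1 (0.68) passed and Ccnb2 (0.84) did not. The largest difference was that of Bub1, 1.65 (edgeR adjusted p = 0.000267). The replication genes that passed were Rrm2 (1.46), Pcna (0.71), Mcm5 (0.47) and Rrm1 (0.43), while Mcm3 (0.15) and Mcm4 (0.06) differed little and did not pass. Mki67 (0.72, edgeR adjusted p = 0.14) did not pass.

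With 452 alone for SCI Tam the fitted differences turned. They were below 0 in 39 of 42 members, with a mitotic median of -0.84 and a replication median of -0.27. No member passed in either direction by edgeR, where 0.0462% of all genes were called higher and 0.121% lower, while 13 were lower at an unadjusted p under 0.05 (9 mitotic, 4 replication) and 0 higher. DESeq2 and limma were not run without those libraries. Ube2c (-2.12), Ccnb2 (-1.90) and Kif23 (-1.80) lay lowest, and only Ndc80 (0.32), Kif4 (0.09) and Mcm4 (0.01) lay above 0. A lone library is assumed in this fit to vary like those of the other groups.

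**Figure D4:**
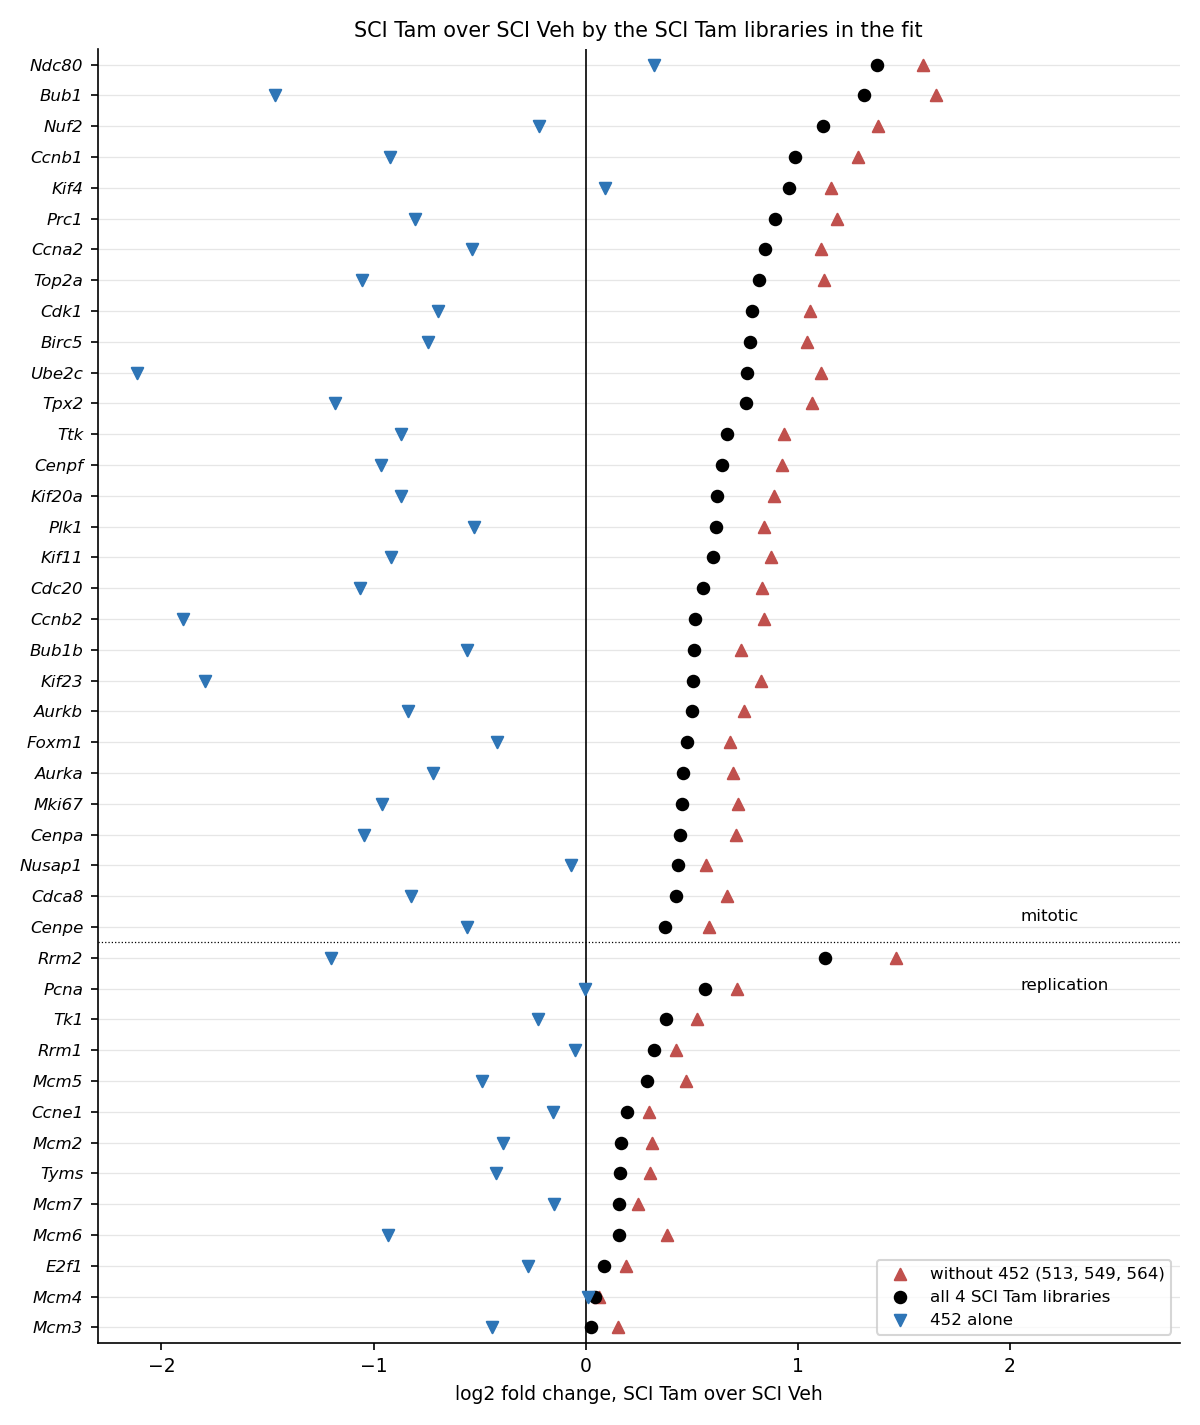
Fitted log2 fold change of SCI Tam over SCI Veh for each member, with mitotic genes above the dotted line and replication genes below it. Triangles pointing up use 513, 549 and 564, circles all 4 SCI Tam libraries and triangles pointing down 452 alone. Upward triangles all lie right of 0, and downward ones lie left of 0 in 39 of 42 members.

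Other features of the SCI Tam libraries varied beside these levels. Fibroblast and mural markers summed to 805, 917, 808 and 1230 CPM in SCI Tam libraries, against 3000 to 8020 CPM in SCI Veh libraries. Of the 10 markers 6 fell and 0 rose, where 8.33% of all genes fell and 7.79% rose. The mural markers Rgs5 and Kcnj8 overlapped, Rgs5 at 173 to 194 CPM in SCI Tam and 174 to 185 CPM in SCI Veh libraries. Kcnj8 was at 8.91 to 9.23 CPM in SCI Tam and 8.17 to 9.33 CPM in SCI Veh libraries. Macrophage and microglia markers summed to 1590, 2730, 2750 and 1250 CPM in SCI Tam, against 1750 to 3430 CPM in SCI Veh libraries. Oligodendrocyte precursor markers summed to 1220, 1490, 1730 and 1260 CPM in SCI Tam, against 1220 to 1390 CPM in SCI Veh libraries, and the 4 astrocyte markers to 8570, 10900, 11300 and 8870 CPM, against 7610 to 9820 CPM. Lymphocyte markers were at most 3.17 CPM in sum in SCI Tam and 6.06 CPM in SCI Veh libraries, and bone marrow and erythroid markers at most 9.74 CPM in SCI Tam and 21.3 CPM in SCI Veh libraries. The part of any of these in the mitotic levels was not tested. Counts and FPKM moved apart between the numbered series for 503 of 15268 genes compared, and for 1 of 42 members, Kif20a.

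Among the further replication and mitotic genes, the shares that rose in SCI Tam over SCI Veh were no higher than the 7.79% of all genes. Of 42 replication genes only 3 passed, all higher in SCI Tam: Hells, a chromatin remodeller (1.62-fold), Rfc4, a clamp loader subunit (1.54-fold), and Slbp, which binds histone mRNA (1.45-fold). Of 51 mitotic genes 3 rose and 1 fell, where 8.33% of all genes fell. Aspm, a spindle pole protein, averaged 8.04 ± 3.93 CPM in SCI Tam and 3.77 ± 1.09 CPM in SCI Veh libraries (SD, n = 4 each) and rose 2.13-fold (edgeR adjusted p = 0.0495). In library 452 Aspm was at 3.24 CPM, within the SCI Veh range of 2.67 to 5.24, and Slbp was at 21.7 CPM, within that of 20.4 to 22.6. Racgap1 at 18.2 CPM and Hells at 6.59 CPM in 452 were just above their highest SCI Veh libraries, 18.1 and 6.52 CPM, and in all 4 genes 513, 549 and 564 were higher than 452. That order held for Rfc4 too but not for Anln, which was at 256.3 CPM in 452 and 239.5 CPM in 564. Racgap1 (1.49-fold) and Anln (1.18-fold), genes of cytokinesis, rose too, but both were also high in Uninjured cord, Anln at 263 ± 20 CPM in SCI Tam, 222 ± 4.5 CPM in SCI Veh and 271 ± 16 CPM in Uninjured libraries. Cdc25b, a phosphatase that activates CDK1, fell to 11.4 ± 0.9 CPM in SCI Tam, against 16.4 ± 2.7 CPM in SCI Veh libraries (edgeR adjusted p = 0.0217).

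Upstream of S phase Ccnd2 fell to 86.7 ± 11.7 CPM in SCI Tam, against 122 ± 5.5 CPM in SCI Veh libraries (SD, n = 4 each), 0.712-fold (edgeR adjusted p = 0.00666). E2f5 (1.33-fold) and E2f6 (1.27-fold) rose, and the other 14 of the 17 genes did not pass. Among all genes tested 7.79% rose and 8.33% fell. Of the 10 inhibitors and pocket proteins only Cdkn1a, the p53 target p21, passed, beside the same shares of all genes. Cdkn1a fell to 32.5 ± 2.2 CPM in SCI Tam, against 47.1 ± 13.8 CPM in SCI Veh libraries (0.688-fold, edgeR adjusted p = 0.0471).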

How the data were processed

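Bulk RNA-seq of 12 mouse spinal cord samples was used, 4 per group. Per the submitters' processing notes, reads were handled with TopHat, Picard, HTSeq and Cufflinks on mm9. The authors deposited raw counts per gene, not normalized, and FPKM values per gene. The sources used here do not state versions, strand setting or annotation.

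From the deposited counts, genes passing filterByExpr by group (minimum count 10 in enough libraries, minimum total 15) were tested with edgeR 4.0.16 (R 4.3.3): TMM scaling, 3 group means, quasi-likelihood tests, 2-sided, with Benjamini-Hochberg adjustment over all 16473 genes and a threshold of 0.05. CPM values are counts scaled to TMM-adjusted library size. Totals of 7967970 to 12581324 counts leave the rarest mitotic genes at a few reads in Uninjured libraries. Alternatives were DESeq2 1.42.0, limma 3.58.1 on log2 of the deposited FPKM plus 1 or 0.1, other scalings and filters, a 2-fold minimum, a term for sex or for the numbered series, fits of 8 libraries and leaving out each library. Leaving out 513, 549 and 564 together was chosen after seeing the data. All members are reported, and from each further pathway list up to 4 genes that passed, with the smallest p in each comparison, are named, besides Cdkn1c, Cdkn2d and Rbl2, which were named after their values were seen. Members and lists were chosen with earlier results of these data known. The fits were tested on simulated data. Promoters came from RefSeq tables of GRCm38.p6, matched by symbol, and no coordinate was carried between builds.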

Additional observations from a re-analysis of the deposited data

Results flagged for a closer look

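In each member and group of 4 libraries, the highest and lowest library were checked for a gap to the nearest other library that was wide against the group's range (Dixon's test at 95%). Of 126 groups 5 passed, and chance gives about 1 in 20.

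Library 452 of SCI Tam was low in 2 of them. Kif23, a kinesin of the central spindle, was at 0.839 CPM in 452 and at 4.87 to 5.55 CPM in the 3 other SCI Tam libraries. Mcm5, a helicase subunit, was at 7.31 CPM in 452 and at 13.9 to 14.5 CPM in the 3 others. Mcm4, another helicase subunit, was highest in SCI Tam library 549, at 29.2 CPM, with the others at 25.9 to 26.1 CPM. Plk1, a mitotic kinase, was highest in SCI Veh library 429, at 3.21 CPM, with the others at 2.82 to 2.89 CPM. Mki67 was highest in Uninjured library 376, at 7.12 CPM, with the others at 1.63 to 2.55 CPM.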

How the results depend on the processing

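The count of members higher in SCI Veh than in Uninjured (30) stayed between 24 and 35 over all alternatives. The single lower member, Ccne1, gave a count of 0 with limma on FPKM plus 1 or 0.1 and with a 2-fold minimum, and 0 to 1 when single libraries were left out (0 without Uninjured 385). The 3 members higher in SCI Tam than in SCI Veh became 5 with DESeq2 and 0 with limma on FPKM plus 0.1, with only the 8 libraries compared, with a term for series, with a term for sex, and without 513, 549 and 564. At an unadjusted p under 0.05, limma on FPKM plus 0.1 placed 7 members higher, the 8 libraries alone 12, the sex term 4, and the series term and the fit without the 3 libraries 0 each. Leaving out single libraries gave 0 to 27: 27 without SCI Tam 452, 0 without SCI Veh 457 or SCI Tam 513, and 1 without SCI Veh 429, SCI Tam 549 or SCI Tam 564. The 39 members higher in SCI Tam than in Uninjured became 6 with the series term and 5 without 513, 549 and 564, and were 32 to 40 otherwise. Both of those settings leave 452 alone to stand for SCI Tam. With the series term and without the 3 libraries, Nuf2 turned to -0.221 and -0.22 on the log2 scale in SCI Tam against SCI Veh, and Aurka to -0.382 and -0.382 and Mcm2 to -0.073 and -0.074 in SCI Tam against Uninjured. No paired analysis was possible because the mouse numbers are not shared between groups. Whether mice 513, 549 and 564 differ from 452 in their biology or in how their libraries were made cannot be told apart. Sex is nearly tied to the lesion groups, since the only female SCI Veh mouse was 429. Low counts limit Ccnb1, Bub1 and other members with few reads in Uninjured libraries.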
